A study of Homo sapiens with 6 samples.

Results

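Intronic clusters were the IGF2BP3 crosslinking clusters that lay inside an annotated gene on the gene's own strand and touched no exon of any transcript on that strand. They were selected by position alone against GENCODE release 44 on GRCh38, with no use of read counts or sequence. Of 244620 clusters in the 5 IGF2BP3 libraries, 10767 were intronic, which is 4.40% (95% Wilson interval 4.32 to 4.48), while 213842 overlapped an exon and 20011 lay outside genes. The 10767 clusters merged into 6105 loci on the same strand, in 1988 host genes. A cluster inside several genes, as 45 to 414 per library were, was given to 1 host. Genes annotated as readthrough were taken last, protein-coding genes before lncRNAs and others, and then the shorter gene. Counts and CPM per host depend on this choice.

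The clusters came from infrared PAR-CLIP of endogenous IGF2BP3 in HCT116, a human colorectal carcinoma line, here of the genotype Tet-OsTIR1-PURO in every library. All cells received 4-thiouridine (4sU) at 100 µM for 15 h and UV light at 365 nm, which joins the labelled RNA to bound protein and leaves T-to-C conversions in the reads. The IGF2BP3 antibody was used after RNase I at 0.05/0.05, 0.1/0.025 or 0.05/0.025 U/µL, or after RNase T1 at 1/1 or 0.25/0.25 U/µL (in lysate/on beads), and a control IgG after RNase I at 0.1/0.025 U/µL. Per the study's methods the antibody also recognises IGF2BP2 in part. Each of the 6 conditions was a single library of 1 cell line without a replicate, and RNA abundance was not measured here, so that the amount of an RNA and the binding per molecule cannot be told apart. The RNA was taken from the gel by electroelution with RNase I 0.05/0.05 and RNase T1 1/1 and from crushed gel in the others. Between the libraries of 1 enzyme the RNase concentration therefore moved with gel recovery, except between RNase I 0.1/0.025 and 0.05/0.025. Cluster reads numbered between 182448 and 2362467 in the IGF2BP3 libraries and 324 with IgG. The epithelial gene EPCAM had exonic cluster reads in 5 of the 5 IGF2BP3 libraries and CDH1, KRT8, KRT18 and KRT19 each in 4, and the markers PTPRC, VIM and ALB of other cell types had none in any.

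IGF2BP3 belongs to a family of mostly cytoplasmic RNA-binding proteins whose KH domains contact short CA-rich motifs and which are best known for binding the 3′ parts of mature mRNAs. Introns are removed from transcripts in the nucleus, so a cluster in an intron can stand for unspliced RNA, for an RNA that the annotation does not contain, or for a second place in the genome that carries the sequence of a mature RNA. Retrocopies, which are DNA copies of spliced mRNAs, often lie in introns of unrelated genes. The sequence and the place of each intronic cluster were examined along with its reads.

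Loci with many reads are shown as 30 bases around the position of the strongest crosslink signal, because they display both kinds of sequence described below. Capitals mark CATT, CAGT or CATA, the DNA spelling of the tetramers CAUU, CAGU and CAUA. The first 4 come from loci whose sequence is also in an annotated transcript from another place.
LSAMP intron, chr3:116645024-116645053, minus strand: acagaatacacttagattgataggaaagaa
UPP2 intron, chr2:158066497-158066526, plus strand: accttatgtagtttattccttcaatCATTt
UPP2 intron, chr2:158065455-158065484, plus strand: gaagtagacttCAGTttctttgcatCATTt
LINC01492 intron, chr9:103204310-103204339, minus strand: ctaatggttgccacccacaacCATTgcttt
The remaining 5 come from loci with sequence found at 1 place in the genome.
AP1S3 intron, chr2:223753703-223753732, minus strand: gctttacagaataaataatgttttaagcat
NECTIN3 intron, chr3:111196535-111196564, plus strand: tccctggagtttggaagatagacCATTtac
KCNJ14 intron, chr19:48457587-48457616, plus strand: tCATTgaaatctaattcaCATAtCATAtca
HBE1 intron, chr11:5299792-5299821, minus strand: tcagaaccCAGTatataattattcCATTct
CYREN intron, chr7:135163297-135163326, minus strand: aaccttttatcccatCATAcaCATAaaacc

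The intronic share of clusters was 4.48% with RNase I 0.05/0.05 (4077 of 90999), 3.50% with 0.1/0.025 (1518 of 43385), 3.38% with 0.05/0.025 (1242 of 36795), 5.81% with RNase T1 1/1 (3478 of 59873) and 3.33% with RNase T1 0.25/0.25 (452 of 13568). The lower bound of the RNase T1 1/1 interval, 5.62%, lay above the intervals of the other 4. The 2 libraries with the highest values were recovered by electroelution and also had the most cluster reads, 2362467 and 1157194. Depth and gel recovery cannot be told apart here. Intronic clusters held 2.84, 2.81, 2.87, 4.38 and 3.43% of the cluster reads in the same order. By reads the RNase I libraries were nearly alike and both RNase T1 libraries were higher. These intervals cover counting error only, and no test between single libraries was possible.

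**Figure D1:**
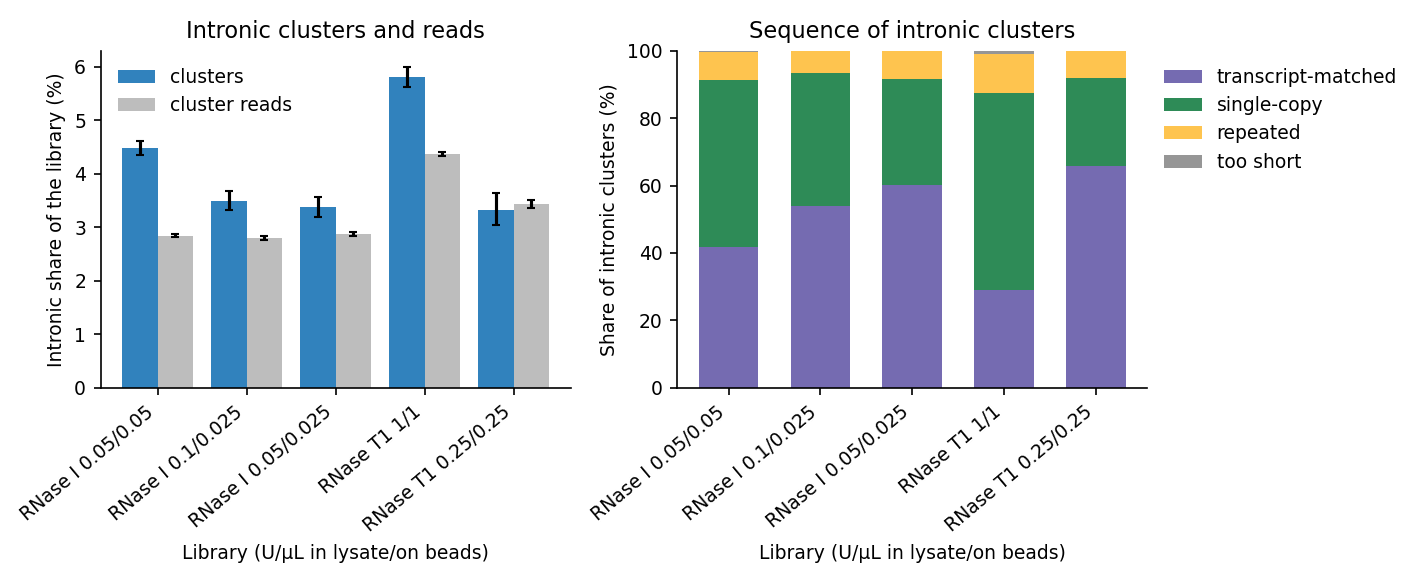
Left, percentage of clusters (blue) and of cluster reads (grey) that were intronic in each IGF2BP3 library, with 95% Wilson intervals for counting error; the highest bars are those of RNase T1 1/1, at 5.81% and 4.38%. Right, percentage of intronic clusters in 4 sequence classes, with transcript-matched clusters between 29.0% and 65.9%.

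Relative to annotated length, introns were thinly covered. There were 16.2, 15.9, 16.3, 24.9 and 19.5 CPM per Mb of intron in the 5 libraries in that order, against 5655, 5652, 5644, 5463 and 5523 CPM per Mb of exon, where CPM is the reads of a region scaled to the sum of cluster reads of the library. The ratio of exonic to intronic density was 350, 355 and 346 with RNase I, 220 with RNase T1 1/1 and 283 with RNase T1 0.25/0.25. In the IgG library 1 of the 25 clusters was intronic, with 8 reads and 3 conversion events. It lay in ENSG00000287279 on chromosome 6, over the RefSeq (GRCh38.p14) alanine tRNA gene TRA-TGC2-1, where 4 of the 5 IGF2BP3 libraries also had a cluster, with 9 to 30 reads.

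A large part of the intronic clusters carried sequence that is also in a transcript from an exon elsewhere, in most cases of another gene. A cluster was called transcript-matched when its central 20 nt occurred, in sense, in a GENCODE transcript of a gene with no exon at the cluster's place, or when its best alignment to such a transcript had identical bases over at least 90% of its length. It was otherwise called single-copy when the central 20 nt occurred once in GRCh38 and repeated when they occurred more than once, and these classes were set after the values had been seen. Of the 10767 clusters, 4568 (42.4%) were transcript-matched, 5172 (48.0%) single-copy, 981 (9.11%) repeated and 46 too short to classify. For 51 of the matched clusters, 24 of them in the lncRNA gene ENSG00000285756, the match was only in a gene that itself held the cluster in an intron, and without these 4517 (42.0%) were matched. Transcript-matched clusters held 59.1% of the intronic reads and single-copy clusters 31.7%.

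The transcript-matched share was 41.6% with RNase I 0.05/0.05, 53.9% with 0.1/0.025, 60.1% with 0.05/0.025, 29.0% with RNase T1 1/1 and 65.9% with RNase T1 0.25/0.25. It was lowest in the 2 libraries with the most intronic clusters, which were also those with the most cluster reads and those recovered by electroelution. In exonic clusters the central 20 nt were in a transcript of a gene with no exon there in 8.16% ± 1.45 (SD over 5 libraries) of clusters of at least 20 nt, against 45.9% ± 15.0 in intronic clusters, with the intronic value higher in 5 of 5 libraries (exact sign-flip permutation p = 0.0625, adjusted 0.0781 over 15 comparisons). Protein-coding transcripts were the match for 87.3% of the matched clusters and lncRNAs for 6.74%. Where alignments tied, a protein-coding transcript was taken first and then the first gene name in alphabetical order, which favours the protein-coding share. RefSeq (GRCh38.p14) placed a pseudogene over 17.1% of the intronic clusters and a transcribed pseudogene over a further 4.27%, strand not considered.

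In 80.5 to 90.6% of the transcript-matched clusters the same library held another cluster with the same central 20 nt, and in 76.4 to 88.2% that cluster was exonic. Where another cluster had the whole sequence in common, between 113 and 344 clusters per library, 80.8 to 91.6% had a read count within 10% of that cluster's. How the alignment treated reads that fit several places is not given in the sources used here.

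Reads were concentrated in a few host genes. The host with the most intronic reads took 6.36% of the mean intronic CPM, the first 10 took 24.6% and the first 50 took 46.3%. LSAMP, a neuronal cell adhesion gene, ranked first with 864, 1500, 2038, 1480 and 4505 CPM in RNase I 0.05/0.05, 0.1/0.025, 0.05/0.025, RNase T1 1/1 and 0.25/0.25, the last being the highest. LSAMP itself had no exonic cluster in any library. All of its intronic reads were transcript-matched, to BZW1, a regulator of translation initiation, and RefSeq lists the pseudogene BZW1P2 at its leading locus. These intronic clusters held 2041, 1205, 1367, 1713 and 822 reads, and the exonic clusters of BZW1 held 3478, 1965, 1544, 1831 and 882 in the same libraries. The 2 values were nearest to each other in the RNase T1 libraries.

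The lncRNA gene ENSG00000258210 had 1226, 1966, 1630, 566 and 1162 CPM in its introns, matched to HMGA1, an architectural chromatin protein gene, over the pseudogene HMGA1P3. Here the RNase T1 libraries were the lowest, in contrast to LSAMP. Its clusters matched to HMGA1 held 2896, 1580, 1093, 648 and 212 reads against 7385, 3741, 2941, 2086 and 861 in the exons of HMGA1. UPP2, a uridine phosphorylase gene, had 481, 960, 898, 895 and 2949 CPM, of which 99.9% were transcript-matched, at its leading loci to the protein-coding gene ENSG00000285976, and 1 of these loci lay over the pseudogene PTP4A1P1 of a tyrosine phosphatase gene. Neither ENSG00000258210 nor UPP2 had exonic clusters in any library.

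The lncRNA gene LINC01492 had 524, 640, 731, 294 and 877 CPM, all matched to SNHG16, a small nucleolar RNA host gene. Intronic clusters matched to mitochondrial RNAs numbered 21, 15, 21, 5 and 5 in the libraries in the same order. At an intronic locus of the oocyte gene OOEP that matched RPL39, a gene of the large ribosomal subunit, the enzymes did not overlap. The RNase I libraries had 331, 320 and 391 CPM there and the RNase T1 libraries 16.4 and 27.4. How many of all loci separate by enzyme was not counted.

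In the lncRNA genes LINC01106 and LINC01123 on chromosome 2, intronic reads outnumbered exonic reads in 3 of 5 libraries. Their intronic reads, at 0% single-copy in both genes, were nearly equal in each library: 234 and 232 with RNase I 0.05/0.05, 40 and 36 with 0.1/0.025, 375 and 372 with 0.05/0.025, 496 and 500 with RNase T1 1/1, 149 and 155 with RNase T1 0.25/0.25. As CPM, the introns of LINC01106 had 99.0, 49.8, 559, 429 and 817 and its exons 550, 717, 303, 57.0 and 137 in the same order. The exons were the higher of both with RNase I 0.05/0.05 and 0.1/0.025 and the lower in the other 3 libraries. The cluster with the highest CPM in its leading intronic locus lay 81 nt from an exon, and a cluster that reached the exon was counted as exonic. Among the first 10 hosts, the lncRNA gene ENSG00000285756 also had no single-copy reads, while NECTIN3 and AP1S3 had 96.5% and 82.3% of their intronic reads in single-copy sequence.

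**Figure D2:**
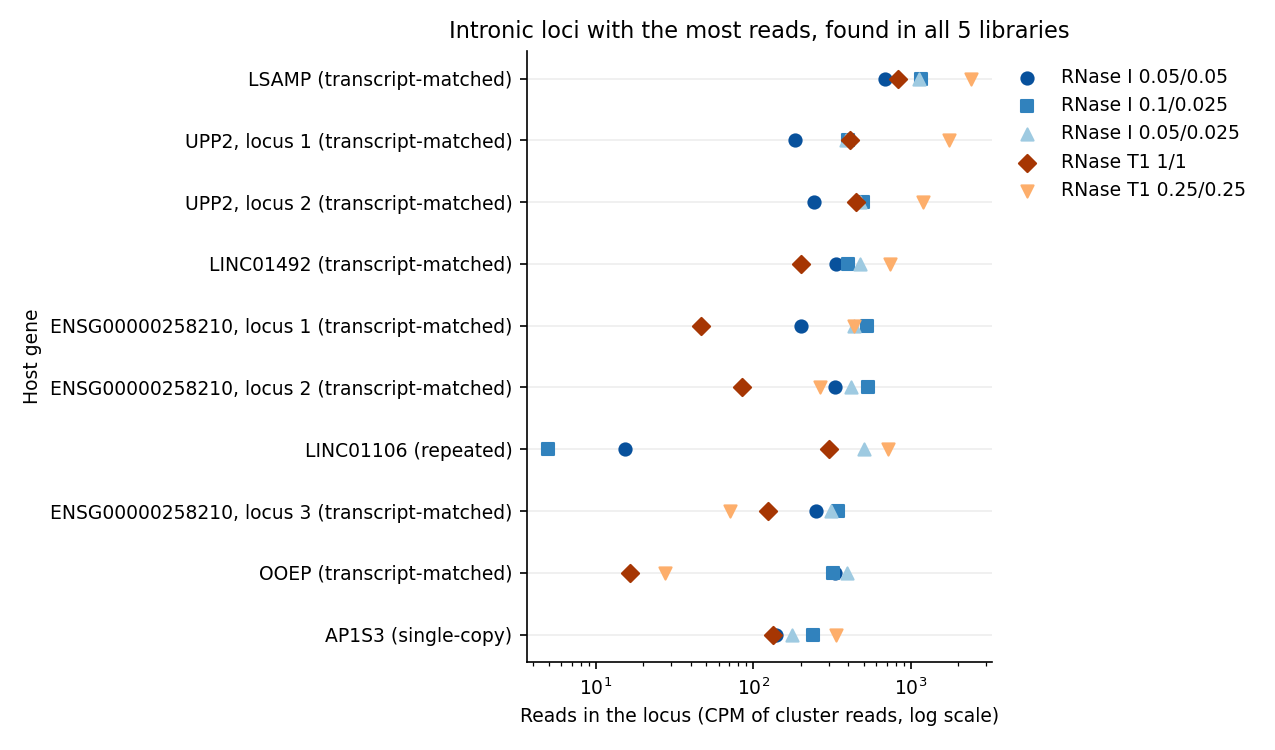
Reads, as CPM of cluster reads on a log scale, in the 10 intronic loci with the highest mean among those found in all 5 IGF2BP3 libraries, with 1 point per library and the sequence class after the host gene. At OOEP and at the second and the third ENSG00000258210 locus both RNase T1 points lie below the 3 RNase I points, and AP1S3 is the only single-copy locus of the 10.

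NECTIN3, a cell adhesion gene, had 566, 699, 570, 970 and 466 CPM in its introns, in 58 loci. The exonic clusters of NECTIN3 held 288, 89, 76, 349 and 14 reads, so the gene had both kinds in every library. AP1S3, an adaptor complex subunit gene, had 230, 351, 297, 490 and 554 CPM in introns, and its exonic clusters held 1892, 735, 694, 1418 and 354 reads. Its leading single-copy locus, shown above, had 139, 239, 174, 133 and 334 CPM, with 0.623, 0.656, 0.538, 0.494 and 0.574 conversion events per read. The spread over the libraries was under 3-fold, and the enzymes overlapped.

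Single-copy clusters often lay shortly after an annotated transcript end. Many genes have a transcript that ends early while a longer one runs on, so that the sequence past the early end is annotated as intron. Of the single-copy clusters, 38.0, 46.2, 53.1, 35.0 and 61.0% lay within 5000 nt downstream of the end of a protein-coding transcript on the same strand, in RNase I 0.05/0.05, 0.1/0.025, 0.05/0.025, RNase T1 1/1 and 0.25/0.25. Of the transcript-matched clusters 3.95, 3.79, 3.75, 5.16 and 5.03% did, and 2.01% of the intron bases of the host genes lay in such windows. The single-copy values were above the transcript-matched ones in each of the 5 libraries. The window was set after the values had been seen, and intron bases count alike whether or not the gene is expressed. The classes also differed in intron length. The median host intron was 8329 to 9581 nt for single-copy clusters and 19557 to 23124.5 nt for transcript-matched clusters over the libraries. The base share pools the introns of all hosts, and no share was adjusted for intron length.

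Counted by locus, 1126 of 3301 single-copy loci (34.1%, 32.5 to 35.7) lay in these windows, and for 869 of the 1126 (77.2%) the end belonged to the host gene. Among the 45 single-copy loci present in all 5 libraries 31 did (68.9%, 54.3 to 80.5). The NECTIN3 locus shown above lay 2773 nt past a NECTIN3 transcript end, and its 75.8, 98.3, 89.5, 181 and 192 CPM were higher with RNase T1. The locus in an intron of KCNJ14, a potassium channel gene, lay 499 nt past the end of GRWD1, a ribosome assembly factor gene, with 74.9, 87.1, 65.6, 137 and 121 CPM. In CYREN, a gene of a DNA repair regulator, a locus 2451 nt past a CYREN end had 39.4, 49.8, 64.1, 108 and 170 CPM. The KCNJ14 and CYREN loci had all RNase T1 values above all RNase I values. The HBE1 locus shown above did as well, with 51.6, 80.9, 83.5, 154 and 93.2 CPM, whereas the leading AP1S3 locus did not. Among the other single-copy loci with the most reads in all 5 libraries, those in OR51B5 and ENSG00000286602 and a further AP1S3 locus had the same order. Those in SARS1 and FBXO31 did not. How many of all loci separate by enzyme was not counted, so this order cannot be called particular to the named loci. A difference between the enzymes was not tested.

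**Figure D3:**
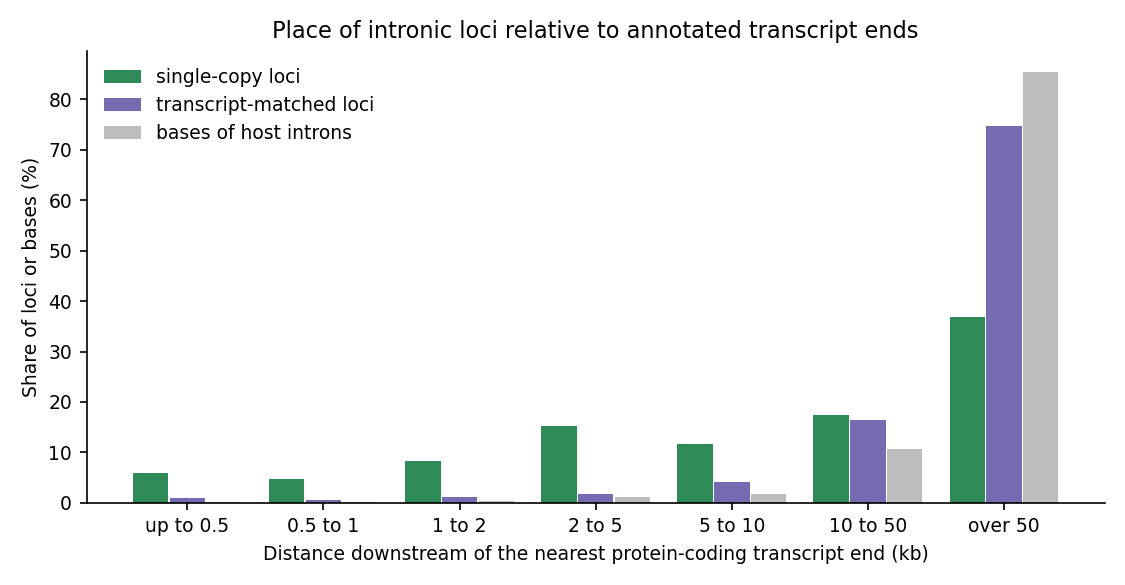
Percentage of single-copy loci (green), transcript-matched loci (purple) and intron bases of the host genes (grey) by distance, in kb, downstream of the nearest protein-coding transcript end on the same strand. Loci over 50 kb from an end make up 36.8% of the single-copy and 74.8% of the transcript-matched loci, against 85.4% of the bases.

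Of the 5 hosts with the most loci, 3 had most of them in such windows. All 58 loci of NECTIN3 lay after a NECTIN3 end, 37 of them within 5000 nt. All 51 loci of MRPL19, a mitochondrial ribosomal protein gene, followed an MRPL19 end, 38 of them within 5000 nt. Of the 45 loci assigned to HBE1, the embryonic beta-like globin gene, 42 followed the end of the olfactory receptor gene OR51B4, and 26 lay within 5000 nt of an end. HBE1 gave 260, 287, 210, 824 and 323 CPM in introns, highest with RNase T1 1/1. PUM3, a Pumilio family gene, had the most, 89 loci spread from 1393 to 78231 nt after its transcript end, 14 of them within 5000 nt. PUM3 had 165, 13.7, 0, 468 and 0 CPM, no exonic cluster in any library, and 73 of its 89 loci in 1 library only. In ENSG00000285756, the remaining host, none of the 49 loci lay in such a window.

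Over all intronic clusters, 8.41, 8.89, 10.6, 6.81 and 10.6% lay within 100 nt of an exon, against 2.11% of the intron bases of the host genes. The median distance to the nearest exon was between 751 and 1344 nt. The hosts of the 2 main classes were compared for exonic clusters of their own: 82.7, 69.5, 70.1, 73.9 and 55.7% of the single-copy hosts had an exonic cluster in the same library, against 40.3, 29.5, 26.2, 35.6 and 15.2% of the hosts with matched clusters. The values of the 2 classes did not overlap over the libraries.

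tRNA genes inside introns made up a small set. Clusters over a RefSeq tRNA gene numbered 116, at 39 tRNA genes, and held 2.70% of the intronic reads. At TRM-CAT6-1, a methionine tRNA gene in an intron of FBXO31, there were 43.6, 51.0, 90.9, 58.8 and 82.2 CPM with 0.417, 0.268, 0.197, 0.441 and 0.333 conversion events per read. These conversion rates lay below 0.5 in every library, as did the medians over all intronic tRNA clusters, at 0.471, 0.444, 0.319, 0.378 and 0.455. TRA-TGC2-1 was higher, at 0.8, 0.636 and 1 with RNase I and 1.22 with RNase T1 0.25/0.25, on 30, 11, 9 and 9 reads. The leading AP1S3 locus was below 0.5 in 1 of 5 libraries. Rates below 0.5 were not confined to tRNA genes, since the single-copy KCNJ14 locus had 0.335 and 0.409 with RNase T1 1/1 and 0.25/0.25.

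The study's target clusters had more than 10 CPM and more than 0.5 conversion events per read. This criterion was applied here with CPM relative to cluster reads. It was met by 429 of 4077 intronic clusters with RNase I 0.05/0.05 (10.5%, against 17.6% of all clusters), by 481 of 1518 with 0.1/0.025 (31.7%, against 39.1%) and by 468 of 1242 with 0.05/0.025 (37.7%, against 45.7%). With RNase T1 1/1 it was met by 490 of 3478 (14.1%, against 21.3%) and with RNase T1 0.25/0.25 by 258 of 452 (57.1%, against 59.3%). The intronic share was below the background of all clusters in each library. The shares are not comparable between libraries, because 10 CPM asks for fewer reads in a shallower one. With RNase T1 0.25/0.25, 5 reads were 27.4 CPM, while with RNase I 0.05/0.05, 30 reads were 12.7 CPM. Beside exonic clusters alone the intronic share was lower by 6.98 ± 2.67 percentage points (30.2% and 37.2%, lower in 5 of 5 libraries, exact permutation p = 0.0625, adjusted 0.0781).

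The share of intronic clusters found again in another IGF2BP3 library was below the background in each library. They overlapped a cluster of another library by at least 1 nt in 51.9% (58.2% of all clusters), 89.5% (94.1%), 92.6% (95.3%), 46.8% (75.4%) and 96.2% (99.1%) of cases, in the order RNase I 0.05/0.05, 0.1/0.025, 0.05/0.025, RNase T1 1/1, RNase T1 0.25/0.25. Beside exonic clusters alone the difference was -10.1 ± 12.6 percentage points (75.4% and 85.5%, exact permutation p = 0.0625, adjusted 0.0781). The gap was widest with RNase T1 1/1, without which the difference was -4.53 points, and the shallow libraries were high in both classes. Of the 6105 loci, 4060 (66.5%) were seen in 1 library and 212 (3.47%) in all 5, of which 149 were transcript-matched, 45 single-copy and 18 repeated. Both enzymes gave clusters at 22.2% of the loci. Exonic clusters were not merged into loci, so these locus shares have no background beside them.

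Intronic and exonic clusters of the same library were compared over 15 measures with an exact two-sided sign-flip permutation test on the 5 library differences. The measures of 20-mer match, 20-mer copies and last nucleotide were added after the data had been seen. The smallest p the test can give is 0.0625, so that no difference could reach 0.05, and libraries of 1 cell line without replicates are not biological repeats. Intronic clusters were shorter in 5 of 5 libraries, with a mean of 45.4 ± 9.49 nt against 60.0 ± 16.9 nt. Their mean log2 reads per cluster were 3.28 ± 0.05 against 3.45 ± 0.17, lower in 5 of 5. Both had the permutation p of 0.0625 (adjusted 0.0781). The median number of conversion events per read was 0.593 ± 0.029 and 0.610 ± 0.044, lower in 4 of 5 libraries (exact permutation p = 0.125, adjusted 0.134).

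**Figure D4:**
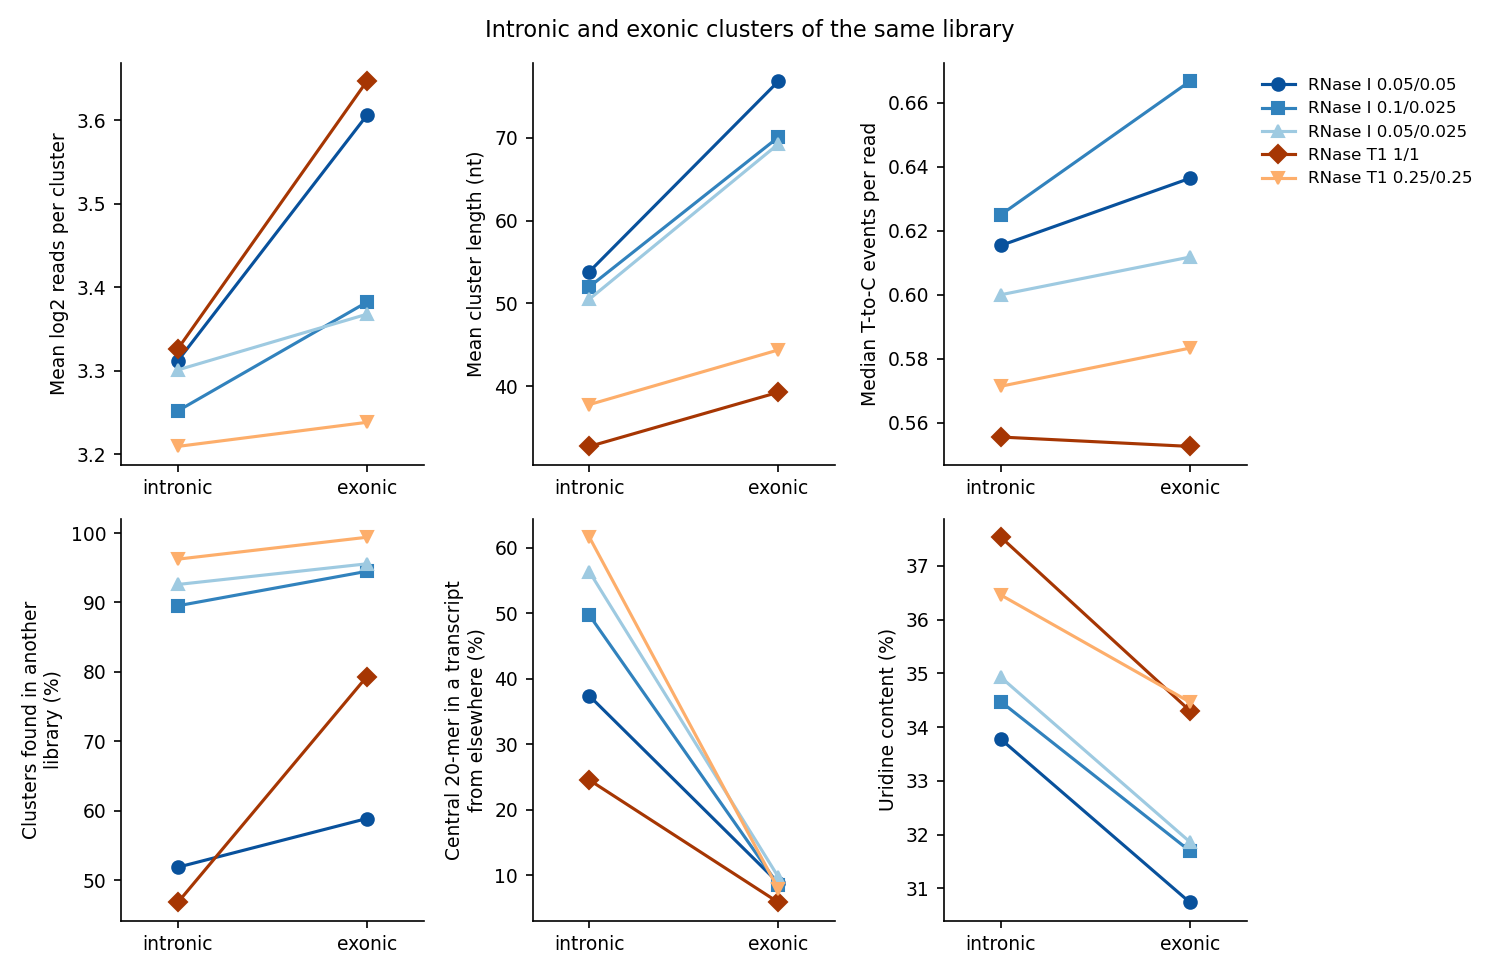
Values of 6 measures in intronic and exonic clusters, with 1 line per IGF2BP3 library; the vertical axes do not start at 0. Every line falls from left to right for the 20-mer match and for uridine content, every line rises for reads, length and overlap with another library, and for conversions the line of RNase T1 1/1 alone falls.

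Uridine made up 33.8, 34.5, 34.9, 37.5 and 36.5% of the bases of intronic clusters and 30.7, 31.7, 31.9, 34.3 and 34.5% of exonic ones. The difference of 2.82 ± 0.49 percentage points had the same direction in 5 of 5 libraries, as had CAUU and CAUA. CAUU occurred 10.2, 11.1, 11.2, 15.0 and 14.1 times per kb of intronic cluster against 7.49, 8.45, 8.30, 11.0 and 11.4 in exons, a difference of 3.01 ± 0.60. CAUA occurred 6.54 ± 1.64 times per kb against 4.90 ± 1.09. Each of these 3 differences had an exact permutation p of 0.0625 (adjusted 0.0781).

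CAGU did not follow them, at 4.67 ± 1.92 per kb in introns against 5.49 ± 1.40, higher in 1 of 5 libraries (exact permutation p = 0.125, adjusted 0.134). UUUU was denser in intronic clusters in 5 of 5 libraries, by 1.87 to 4.45 per kb. Set against only those exonic clusters that overlap a 3′UTR, the UUUU difference was 1.16 per kb with a lowest library value of -0.01 (exact permutation p = 0.125), and that of uridine content was 1.82 percentage points (1.12 to 2.38). Without transcript-matched clusters the UUUU difference was 0.187 per kb (exact permutation p = 1). GGAC was less dense in 5 of 5, at 1.44 ± 0.52 against 2.09 ± 0.55 (UUUU and GGAC against all exonic clusters, each exact permutation p = 0.0625, adjusted 0.0781). GGGG was at 1.59 ± 0.34 against 1.95 ± 0.49 per kb, higher in 1 of 5 (exact permutation p = 0.25, adjusted 0.25). A guanosine as last nucleotide, which RNase T1 leaves by its cleavage preference, was found in 10.6, 11.1, 10.1, 94.3 and 88.9% of intronic clusters, lower than in exonic clusters by 1.89 ± 1.03 percentage points.

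Taken alone, single-copy clusters differed more from exonic clusters than all intronic clusters did in 4 of the 6 motifs, the exceptions being UUUU, at 0.677 against 3.02 per kb, and CAGU, at -0.677 against -0.827. CAUU was at 13.6 ± 2.52 per kb in single-copy clusters, 10.6 ± 1.85 in transcript-matched ones and 9.32 ± 1.74 in exonic clusters. The single-copy value was above the exonic one in 5 of 5 libraries, as was CAUA at 7.36 ± 1.84, whereas GGGG at 1.00 ± 0.52 was below it in 5 of 5 (each exact permutation p = 0.0625, adjusted 0.102 over the 13 measures that the definition of the class does not fix). UUUU in single-copy clusters was higher than in exons in 3 of 5 libraries (exact permutation p = 0.4375, adjusted 0.517), while transcript-matched clusters had 21.6 ± 5.77. Mean log2 reads per cluster were 2.90 ± 0.14 in single-copy and 3.59 ± 0.19 in transcript-matched clusters, on either side of the exonic 3.45 ± 0.17. Conversion events per read in single-copy clusters, 0.614 ± 0.037, were above the exonic value in 2 of 5 libraries (exact permutation p = 0.5, adjusted 0.542).

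Genes of the IGF2BP family, known target genes and splicing factor genes were looked up next. The IGF2BP family genes IGF2BP1, IGF2BP2 and IGF2BP3 and the oncogene MYC had 0 in all 5 libraries, although IGF2BP2, IGF2BP3 and MYC had exonic clusters in each. HMGA2, a chromatin protein gene with a long 3′UTR, had 4 intronic clusters with 29 reads with RNase I 0.05/0.05 and 3 with 14 reads with RNase T1 1/1, and none in the other 3 libraries. These were 1.05% and 0.768% of its cluster reads in those libraries, and all 7 were single-copy. Of 18 genes of SR splicing factors and of the CLK kinases that phosphorylate them, 0 had an intronic cluster, while 15 had exonic ones, 556 clusters in all. Over all 11988 genes with an exonic cluster, 1182 (9.86%) also hosted an intronic one. A cluster needs reads with conversions, and one that touched an exon of any transcript, including transcripts that retain an intron, was counted as exonic. A gene without an intronic cluster can therefore have intronic reads below detection at this depth or in sequence counted as exonic.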

How the data were processed

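The 6 libraries were labelled per the GEO labels, and each was processed by the authors on its own. UMIs were extracted and reads deduplicated with UMI-tools 1.1.1, reads of 18 to 45 nt were kept with Trimmomatic 0.30 and aligned to GRCh38 with Bowtie 0.12.7, with up to 3 mismatches, and clusters were called with PARalyzer 1.5. The deposited values used are counts of reads and of conversion events per cluster, not normalized. The authors' deposited mode score was not used as a value.

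CPM was computed here relative to the cluster reads of each library. Clusters were placed against GENCODE release 44 with bedtools 2.31.1, matched to its transcripts with exact 20-mers and BLAST 2.17.0, and compared with exonic clusters, or as an alternative with those overlapping a 3′UTR, by exact sign-flip permutation with Benjamini-Hochberg adjustment (Python 3.11.15, pandas 2.3.3, numpy 2.4.6). The class rule, the tetramer count and the sign-flip test were also run on simulated data. The simulated intervals came from the same annotation, so this checks the code only. The matching to transcripts and the distances to transcript ends were not simulated. Named genes were the first 10 hosts and loci by mean CPM, the 5 hosts with most loci, hosts with IgG clusters and fixed lists; single-copy loci were added after their values were seen, and 1 named gene is not reported here. The members and lists were chosen with earlier results of these data known. Wilson 95% intervals and counts cover counting error only.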

Additional observations from a re-analysis of the deposited data

How the results depend on the processing

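No pairing between conditions was possible, because replicate numbers pair nothing between conditions of 1 library each. Intronic and exonic clusters were paired within each library. Of 179 differences between intronic and exonic clusters, over 15 measures and 13 other settings, 178 kept their direction. Conversion events per read turned from -0.0167 to 0.00134 without transcript-matched clusters, a setting chosen after seeing the data, and none of the tests could pass 0.05. The same setting moved log2 reads per cluster to -0.43, the share with more than 10 CPM and more than 0.5 conversion events per read to -12.8 points, CAUU to 4.55, GGGG to -0.796 and last guanosine to -0.694. With at least 10 reads, cluster length moved to -26.0 nt, conversion events to -0.0354, that share to -11.1, overlap with another library to -5.65 points and GGGG to -0.118. Conversion events were -0.0104 without RNase I 0.1/0.025, and GGGG ran from -0.226 without RNase I 0.05/0.05 (-0.239 without RNase T1 1/1) to -0.611 without RNase T1 0.25/0.25. Against 3′UTR clusters only UUUU lost its direction in 1 library among the measures that had it in 5 of 5. The pooled intronic shares were 4.40% of clusters and 3.20% of reads. They became 4.24% and 3.11% with no exon on either strand, 4.20% and 3.00% at least 50 nt from an exon, 3.43% and 2.30% with protein-coding hosts only, 4.50% and 3.40% by cluster midpoint, and 3.81% and 2.90% with at least 10 reads. Without transcript-matched clusters, and without the exonic and other clusters left out in that setting, the shares were 2.95% and 1.55%. Leaving out each library gave 3.95% (without RNase T1 1/1) to 4.60% of clusters and 2.87% to 3.51% of reads. The transcript-matched share of 42.4% became 42.0% with matches in a gene that holds the cluster not counted, a setting chosen after seeing the data, 35.4% with protein-coding hosts, 55.7% with at least 10 reads and 40.1% to 48.8% with each library left out. The share of single-copy clusters within 5000 nt after a transcript end, 39.4% in the pool, became 42.2% and 45.8% in the same order, and 38.3% to 42.3% with each library left out. Both shares were not recomputed by midpoint. The planned comparison of soft-masked bases was not run because the genome sequence used is in capitals throughout. Clusters of few reads limit the single-copy class, whose median was 6 or 7 reads in each library.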
